A study of Homo sapiens with 6 samples.

Results

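The genes described here encode the proteins of the mitochondrial ribosome and of the machines that import proteins into mitochondria. They are the 53 rows, of 5117 in the deposited count table, whose symbol starts with MRPL, MRPS, TIMM or TOMM, and the choice used no measured value. The 27 MRPL genes stand for the large ribosomal subunit, the 11 MRPS genes for the small subunit, the 7 TIMM genes for import at the inner membrane and the 8 TOMM genes for import at the outer membrane. The table holds only genes that passed the authors' own threshold (largest deposited adjusted p-value 0.05), so each of the 53 had already been called different between the groups, and genes that have no row are not analysed here.

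RNA was sequenced from HMC3, an established human microglial cell line labelled as wild type and grown in MEM with fetal bovine serum, penicillin and streptomycin. One group of 3 libraries (C1s-CM) came from cells given CM with C1s, and the other group of 3 libraries (control CM, titled FLAG) from cells given CM without C1s. The labels do not spell out CM, the producing cells, the dose or the time. C1s is a secreted protease that acts early in the classical route of complement activation, and the title of the series sets the comparison in glioblastoma, immunosuppression and the metabolism of microglia.

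Mitochondria make a small set of respiratory chain subunits from their own DNA, on a ribosome whose RNA is mitochondrial but whose proteins are all encoded in the nucleus, made in the cytosol and imported. Precursors are recognised by receptors of the TOM complex in the outer membrane and pass through its channel, TOMM40. Small TIM chaperones escort hydrophobic precursors across the intermembrane space, the TIM22 complex inserts carrier proteins into the inner membrane, and the TIM23 complex, with TIMM17A or TIMM17B in its core, takes precursors into the matrix.

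The deposited counts summed to between 12730766 and 14961744 per library, which is a part of each library and not its depth. The labels do not say whether the replicates were grown as separate cultures, and the p-values cover only the spread among these 6 libraries, part or all of which may be technical. Levels below are in CPM, counts relative to the TMM-scaled library total, with the mean ± SD of 3 libraries where given, and differences are log2 fold changes of C1s-CM minus control CM ± SE from edgeR's quasi-likelihood test. Adjusted p-values from that test are Benjamini-Hochberg values over 5116 genes, and "rose" or "fell" means an adjusted p at or under 0.05. In bulk RNA, fewer cells that express a gene and less RNA per cell cannot be told apart. Of 12 microglia markers 1 had a row, of 8 astrocyte and glioma markers 0, and of 9 fibroblast and pericyte markers 3, of which 2 rose (THY1 by 0.15 and PDGFRB by 0.12 on the log2 scale) while COL1A1 differed by 0.027. Of 12 proliferation genes 8 had a row, of which 3 rose and 5 fell (median -0.19), beside 50.9% and 48.5% of all tested genes. The part of such differences in the results was not tested.

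Of the 53 genes, 41 rose and 12 fell in C1s-CM. Among all tested genes 99.4% were called, 50.9% as higher and 48.5% as lower, so that a call by itself sets no gene apart in this table. The groups did not overlap for 51 of the 53 genes, where 97.2% of all tested genes did not overlap. The 2 with overlapping groups were MRPS21 and TOMM7. The median difference of the 53 genes was 0.20 on the log2 scale, against 0.080 over all tested genes, and their median absolute difference of 0.26 was below the 0.31 of all tested genes. The changes were small: apart from the pseudogene TOMM40P1, none reached a factor of 2. Among the 51 coding genes the largest changes were those of MRPL54, which rose by 36.6%, and of MRPL42, which fell by 28.1%. Values with total-count scaling lay a median of -0.13 from those with TMM scaling on the log2 scale. With total counts 26 of the 53 rose and 12 fell, with a median of 0.080 beside -0.045 over all tested genes, of which 75.3% were called (26.1% higher, 49.2% lower). Base composition moved with the direction over all tested genes: 98% of those with at least 50% G and C in their transcript had a difference above 0, and 6.15% of the others. In the MRPL, MRPS and TIMM classes all genes with at least 50% rose, and in the TOMM class 2 of 4 did.

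Coverage of the 4 classes by the table was uneven. Rows existed for 27 of the 49 MRPL genes annotated as protein-coding in GENCODE 29 (55.1%), 11 of 29 MRPS genes (37.9%), 7 of 16 TIMM genes (43.8%) and 6 of 10 TOMM genes (60%). Together these are 51 of 104 genes, or 49%, beside 25.2% of all 19951 protein-coding genes. A row needed a call by the authors, and the 19951 include genes with little or no RNA in these cells. The 2 shares therefore differ by level as well as by change, and the part of each was not tested. The other 2 rows are the processed pseudogenes TOMM40P1 and TOMM40P2. Levels per kilobase of a representative transcript in control CM had a median of 111 CPM per kb for the large subunit (3.27 to 287), 71.2 for the small subunit (14.3 to 159), 61.9 for inner membrane import (24.8 to 187) and 48.4 for outer membrane import (2.31 to 142), against 19.6 over all tested genes. The ranges of the 4 classes overlapped widely. The lowest coding value, that of MRPL42, rests on a representative transcript of 15582 bases.

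**Figure D1:**
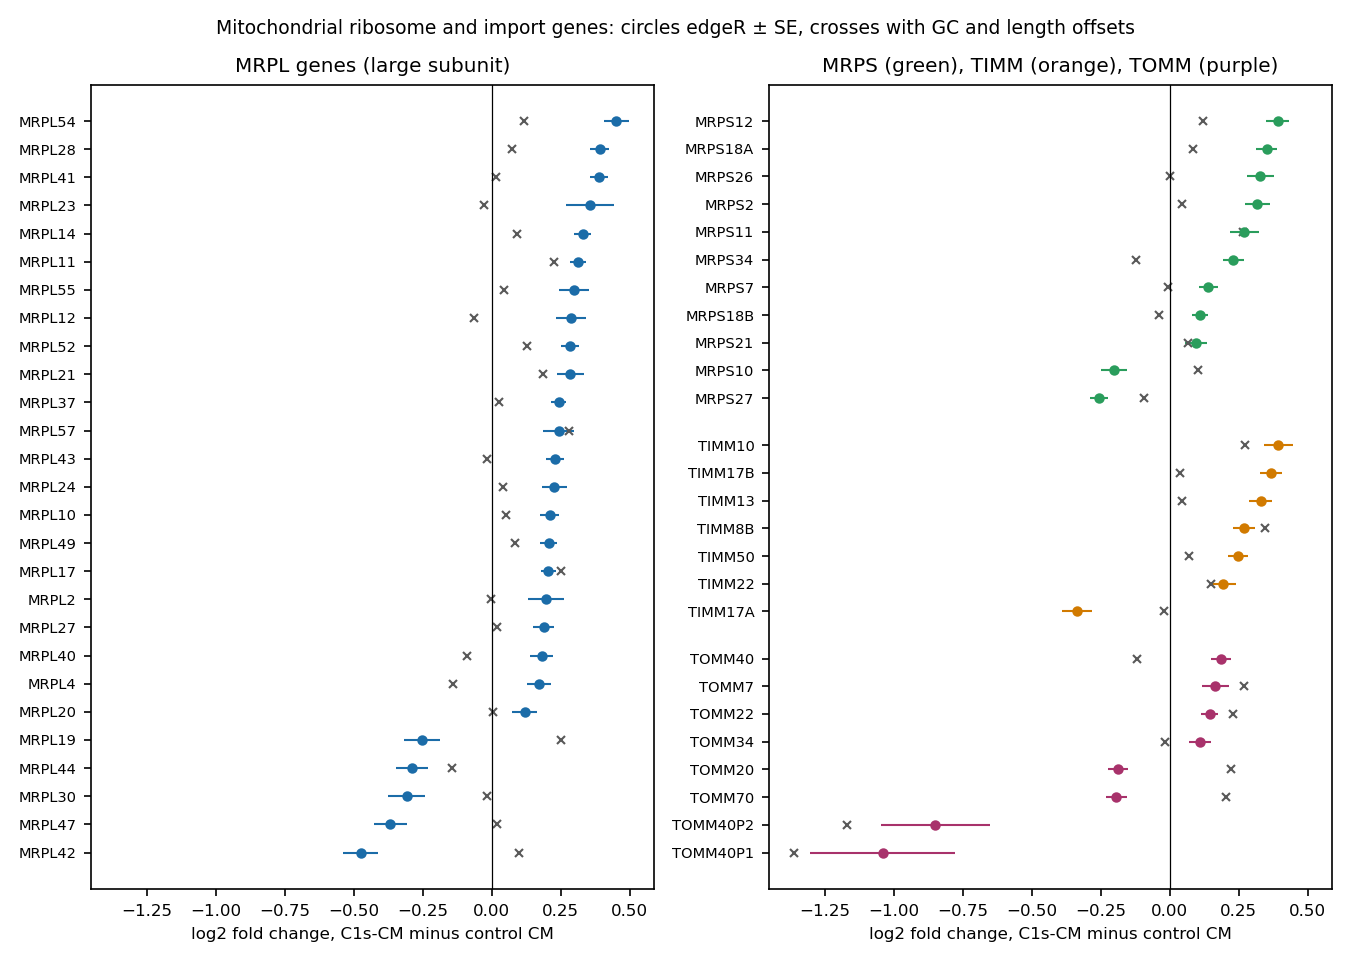
Log2 fold change of each gene, C1s-CM minus control CM, as circles with SE bars from edgeR, and as crosses after offsets for GC content and transcript length, with the 27 MRPL genes at left and the MRPS, TIMM and TOMM genes at right. 41 circles lie right of 0 and 12 left, the 2 TOMM40 pseudogenes lie farthest left, and most crosses lie closer to 0 than their circles.

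Genes of the large subunit mostly rose. Of the 27 MRPL genes 22 rose and 5 fell, beside 50.9% and 48.5% of all tested genes. Their median difference was 0.23, with a range of -0.48 to 0.45. The groups overlapped for 0 of them, where 97.2% of all tested genes did not overlap. With total-count scaling 15 rose and 5 fell, beside 26.1% and 49.2% of all tested genes. The summed MRPL level was 4042, 4086 and 4027 CPM in the C1s-CM libraries and 3481, 3444 and 3389 CPM in the control libraries. MRPL54, a protein found in the mitochondrial and not in the bacterial ribosome, had 113, 123 and 122 CPM in the C1s-CM libraries and 84.8, 84.6 and 92.0 CPM in the control libraries. It rose by 0.45 ± 0.045 (adjusted p = 4.59e-09), the largest rise among the 53 genes. MRPL41, also specific to the mitochondrial ribosome, had 203, 204 and 203 CPM in the C1s-CM libraries and 160.1, 152 and 154 CPM in the control libraries. Its C1s-CM libraries lay within 1 CPM of each other, and it rose by 0.39 ± 0.033 (adjusted p = 3.66e-10). MRPL28, a homologue of bacterial L28, had 317, 335 and 331 CPM in the C1s-CM libraries and 264, 241 and 245 CPM in the control libraries and rose by 0.39 ± 0.034 (adjusted p = 4.74e-10). MRPL23, a homologue of the L23 protein beside the exit tunnel, had 41.5, 37.6 and 38.3 CPM in the C1s-CM libraries and 31.2, 35.4 and 25.3 CPM in the control libraries. The spread of its control libraries was wide for its level, and its rise was 0.36 ± 0.086 (adjusted p = 4.82e-04).

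The other 18 MRPL genes that rose did so by 0.12 (MRPL20) to 0.33 (MRPL14). MRPL14, whose bacterial homologue sits at the subunit interface, had 344, 357 and 336 CPM in the C1s-CM libraries and 279.6, 279 and 268 CPM in the control libraries and, per kilobase, the highest control level of the 53 genes. MRPL11, at the base of the stalk that binds translation factors, had 326, 319 and 318 CPM in the C1s-CM libraries and 259, 262 and 256 CPM in the control libraries and rose by 0.31 ± 0.029 (adjusted p = 1.34e-09). The proteins that form the stalk itself, MRPL10 and MRPL12, rose by 0.21 and 0.29. MRPL2, near the peptidyl transferase centre, rose by 0.20 ± 0.067 (adjusted p = 0.00721). MRPL20 had the smallest rise, 0.12 ± 0.046 (adjusted p = 0.0165), and without replicate 1 of C1s-CM its adjusted p in the edgeR test was 0.071, and without replicate 3 of control CM 0.0726.

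5 MRPL genes fell. MRPL42, a mitochondria-specific protein, had 40.5, 34.7 and 34.9 CPM in the C1s-CM libraries and 50.8, 51.5 and 50.7 CPM in the control libraries. The control libraries were close together and all above the C1s-CM libraries, and the gene changed by -0.48 ± 0.064 (adjusted p = 3.94e-07). MRPL47, the homologue of bacterial L29, had 35.4, 33.2 and 35.9 CPM in the C1s-CM libraries and 45.0, 45.3 and 44.5 CPM in the control libraries and a difference of -0.37 ± 0.061 (adjusted p = 7.68e-06). MRPL30, the homologue of bacterial L30, had 28.0, 28.7 and 27.3 CPM in the C1s-CM libraries and 34.8, 35.7 and 33.5 CPM in the control libraries. It changed by -0.31 ± 0.068 (adjusted p = 1.95e-04). MRPL44, which carries an RNase III-like fold, had 40.6, 41.9 and 38.9 CPM in the C1s-CM libraries and 47.6, 51.7 and 49.0 CPM in the control libraries and changed by -0.29 ± 0.059 (adjusted p = 9.18e-05). MRPL19, the homologue of bacterial L19, had 32.2, 33.5 and 32.0 CPM in the C1s-CM libraries and 37.9, 41.4 and 37.2 CPM in the control libraries and changed by -0.25 ± 0.066 (adjusted p = 9.76e-04). Per kilobase of transcript the control levels of these 5 genes ran from 3.27 CPM per kb (MRPL42) to 32.8 CPM per kb (MRPL47), all under the class median of 111 CPM per kb.

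Genes of the small subunit also mostly rose. Of the 11 MRPS genes 9 rose and 2 fell, beside 50.9% and 48.5% of all tested genes. Their median was 0.23, with a range of -0.26 to 0.39. With total-count scaling 6 rose and 2 fell, beside 26.1% and 49.2% of all tested genes. The summed MRPS level was 1491, 1483 and 1502 CPM in the C1s-CM libraries and 1380, 1358 and 1345 CPM in the control libraries. MRPS12, whose bacterial homologue lies at the decoding centre, had 117, 109 and 116 CPM in the C1s-CM libraries and 88.4, 86.6 and 85.6 CPM in the control libraries and rose by 0.39 ± 0.042 (adjusted p = 1.26e-08). MRPS18A had 121, 123 and 125 CPM in the C1s-CM libraries and 96.7, 98.4 and 94.5 CPM in the control libraries and rose by 0.35 ± 0.039 (adjusted p = 2.04e-08). Despite its symbol MRPS18A is found in the large subunit of the human structure, and with it moved there the small subunit median was 0.18. MRPS26, a mitochondria-specific protein, had 78.7, 79.6 and 79.8 CPM in the C1s-CM libraries and 65.6, 64.6 and 59.5 CPM in the control libraries and rose by 0.33 ± 0.049 (adjusted p = 1.80e-06). MRPS2, a homologue of bacterial S2, had 112, 109 and 102 CPM in the C1s-CM libraries and 83.9, 90.4 and 84.7 CPM in the control libraries and rose by 0.32 ± 0.045 (adjusted p = 8.89e-07).

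The remaining 5 rises in the small subunit ran from 0.094 (MRPS21) to 0.27 (MRPS11). MRPS21 had 138, 145 and 151 CPM in the C1s-CM libraries and 140.5, 130.4 and 136 CPM in the control libraries, with 1 control library above the lowest C1s-CM library. With total-count scaling the differences of MRPS21, MRPS18B, MRPL20 and TOMM34 turned to small negative values. The adjusted p of MRPS21 was 0.0261 in edgeR's test and rose to 0.178 without replicate 3 of C1s-CM and to 0.122 without replicate 2 of control CM, and 8 annotated pseudogenes carry its name. MRPS27, a pentatricopeptide repeat protein that binds mitochondrial RNA, had 144, 147 and 144 CPM in the C1s-CM libraries and 171, 176 and 173 CPM in the control libraries and fell by 0.26 (SE 0.034, adjusted p = 2.82e-07). MRPS10, a homologue of bacterial S10, had 90.2, 81.1 and 83.3 CPM in the C1s-CM libraries and 97.1, 99.4 and 96.2 CPM in the control libraries and changed by -0.20 ± 0.045 (adjusted p = 2.43e-04). The fall of MRPS10 came with 1 C1s-CM library, replicate 1, close to the control libraries.

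**Figure D2:**
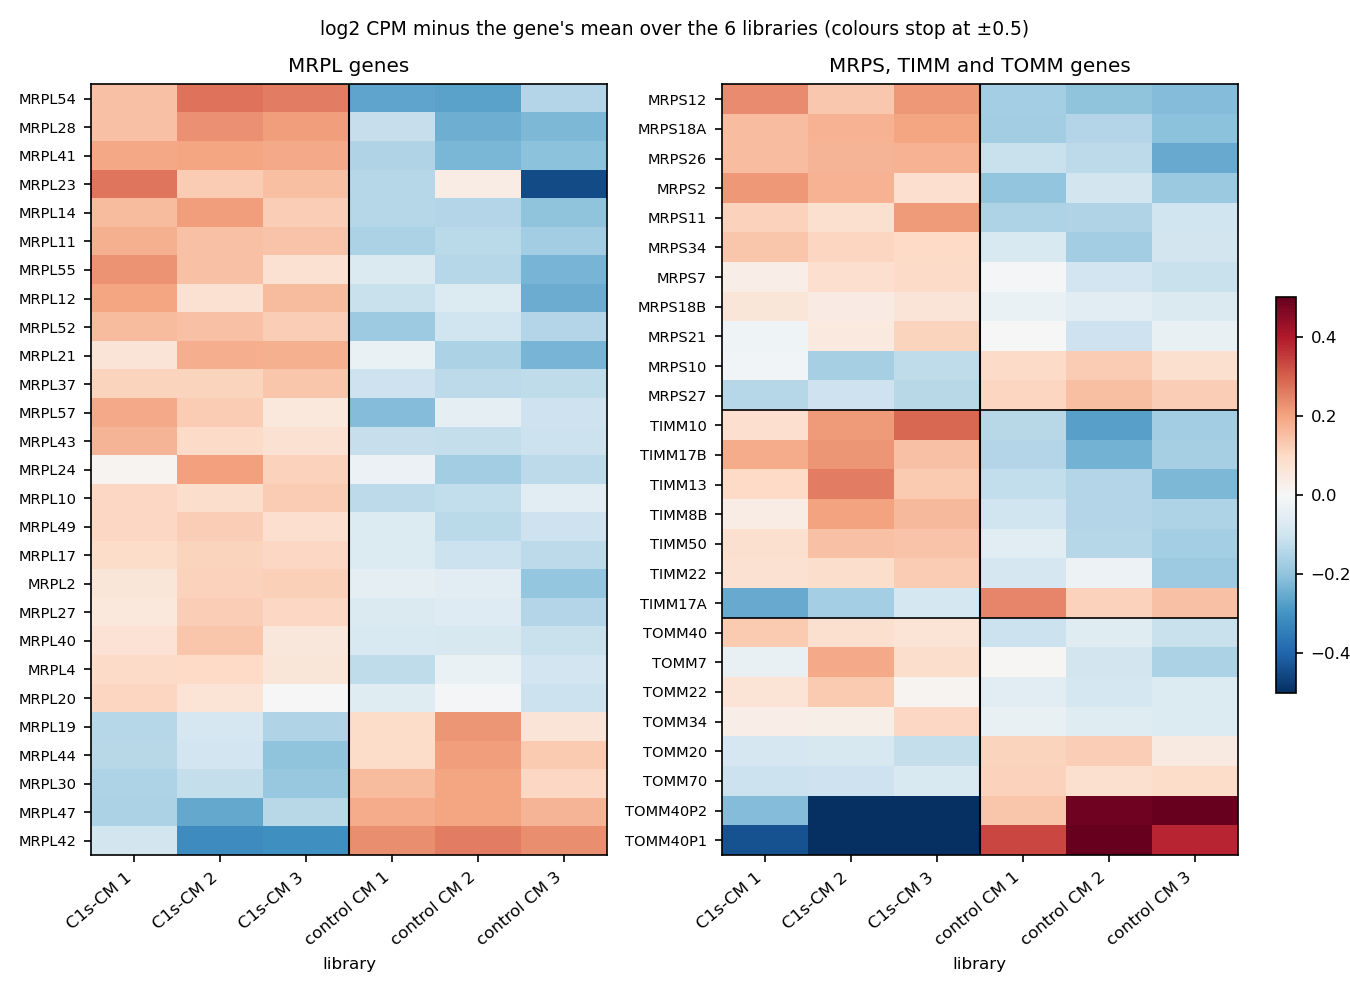
Each gene (rows) in each of the 6 libraries (columns), as log2 CPM minus the gene's mean over the libraries, with red above and blue below that mean and colours stopped at ±0.5. The 3 C1s-CM columns are red for most MRPL, MRPS and TIMM genes, and the genes that fell, such as MRPL42 and TIMM17A, show the opposite colours in the same libraries.

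At the inner membrane 6 of the 7 TIMM genes rose and 1 fell, beside 50.9% and 48.5% of all tested genes. Their median was 0.27, with a range of -0.34 to 0.39. With total-count scaling 5 rose and 1 fell, beside 26.1% and 49.2% of all tested genes. The summed TIMM level was 848, 908 and 894 CPM in the C1s-CM libraries and 772, 739 and 731 CPM in the control libraries. The 3 small TIM chaperones of the intermembrane space with a row all rose. TIMM10, a subunit of the main hexameric chaperone, had 85.8, 93.9 and 98.8 CPM in the C1s-CM libraries and 73.5, 67.0 and 71.7 CPM in the control libraries and rose by 0.39 ± 0.052 (adjusted p = 3.32e-07). TIMM13, a subunit of the second chaperone complex, had 141, 157 and 144 CPM in the C1s-CM libraries and 121, 118 and 112 CPM in the control libraries and rose by 0.33 ± 0.042 (adjusted p = 1.85e-07). TIMM8B, a relative of the TIMM13 partner TIMM8A, had 169.9, 190.1 and 185 CPM in the C1s-CM libraries and 154, 149 and 148 CPM in the control libraries and rose by 0.27 ± 0.039 (adjusted p = 1.03e-06). TIMM8B overlaps SDHD on the opposite strand, and the strand used in counting is not given in the sources used here. SDHD itself fell (log2 fold change -0.27 ± 0.065). TIMM13 overlaps LMNB2 on the same strand. The partners TIMM8A, TIMM9 and TIMM10B had no row and were not analysed here.

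TIMM50, the TIM23 receptor that takes over precursors from the outer membrane, had 183, 192 and 191 CPM in the C1s-CM libraries and 167, 157 and 154 CPM in the control libraries and rose by 0.25 ± 0.036 (adjusted p = 1.20e-06). TIMM22, the channel-forming protein of the carrier translocase, had 89.0, 89.7 and 92.1 CPM in the C1s-CM libraries and 79.7, 83.0 and 74.4 CPM in the control libraries and rose by 0.19 ± 0.047 (adjusted p = 5.17e-04). The channel TIMM23 and the motor adaptor TIMM44 had no row.

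TIMM17A and TIMM17B, the alternative core subunits of the TIM23 complex, moved in opposite directions. TIMM17B (chrX:48893447-48898143, minus strand, GRCh38) had 124, 127 and 121 CPM in the C1s-CM libraries and 98.7, 92.7 and 97.3 CPM in the control libraries and rose by 0.37 ± 0.040 (adjusted p = 1.89e-08). TIMM17A (chr1:201955491-201970661, plus strand) had 55.1, 58.5 and 61.8 CPM in the C1s-CM libraries and 77.8, 71.1 and 72.8 CPM in the control libraries and fell by 0.34 (SE 0.054, adjusted p = 4.42e-06). For both genes every C1s-CM library lay outside the range of the control libraries. The log2 ratio of TIMM17B to TIMM17A was 1.17, 1.12 and 0.97 in the C1s-CM libraries and 0.34, 0.38 and 0.42 in the control libraries, a difference of 0.70 (two-sided exact permutation p = 0.1 with n = 3 per group, the smallest that 3 against 3 can give). The ratio is not affected by the scaling of libraries, but it does carry any bias that differs between the 2 transcripts, and they differ in base composition. It restates the opposite directions of the 2 genes and is no separate support for them. The coding sequence of TIMM17A has 49.5% G and C, that of TIMM17B 62.4%, and at the third codon position the values are 40.4% and 69.8%. The first 180 coding bases of each, from the GENCODE 29 transcripts, are shown because they encode related stretches of protein with different base composition, with every G and C in capitals.

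TIMM17A: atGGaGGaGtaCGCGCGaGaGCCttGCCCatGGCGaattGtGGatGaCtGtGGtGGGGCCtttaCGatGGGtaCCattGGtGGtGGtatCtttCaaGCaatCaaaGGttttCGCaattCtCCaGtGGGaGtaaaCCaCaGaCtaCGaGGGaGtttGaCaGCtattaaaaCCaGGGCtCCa

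TIMM17B: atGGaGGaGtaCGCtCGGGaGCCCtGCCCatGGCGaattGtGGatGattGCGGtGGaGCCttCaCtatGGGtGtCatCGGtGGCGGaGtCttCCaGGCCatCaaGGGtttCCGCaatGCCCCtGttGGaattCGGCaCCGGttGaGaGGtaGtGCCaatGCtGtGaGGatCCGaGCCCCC

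These stretches are identical at 132 of 180 bases (73.3%). Of the 48 bases that differ, 31 lie at the third codon position, and at 18 of those TIMM17B has G or C where TIMM17A has A or T, against 7 the other way round. The stretch of TIMM17A has 50.6% G and C and that of TIMM17B 59.4%.

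At the outer membrane directions were split: 4 of 8 TOMM genes rose and 4 fell, beside 50.9% and 48.5% of all tested genes. The class had a median of -0.039 and a range of -1.04 to 0.19. The median was 0.13 without the 2 pseudogenes, with 4 rises and 2 falls, an alternative added after the data had been seen. Their summed level was 899, 925 and 897 CPM in the C1s-CM libraries and 888, 878 and 863 CPM in the control libraries, the smallest separation of the 4 classes. With total-count scaling 0 of the 8 TOMM genes rose and 4 fell, beside 26.1% and 49.2% of all tested genes. The 2 peripheral receptors fell. TOMM20, the main receptor for presequences, had 139, 139 and 136 CPM in the C1s-CM libraries and 159, 160.3 and 152 CPM in the control libraries and changed by -0.19 ± 0.036 (adjusted p = 3.94e-05). TOMM70, the receptor for carrier precursors and a docking site for cytosolic chaperones, had 93.3, 93.6 and 95.3 CPM in the C1s-CM libraries and 109, 106 and 107 CPM in the control libraries and changed by -0.19 ± 0.040 (adjusted p = 9.34e-05). In both, the 3 C1s-CM libraries lay below all control libraries.

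The central receptor and organiser of the complex, TOMM22, had 277, 289 and 267 CPM in the C1s-CM libraries and 254, 248 and 251 CPM in the control libraries and rose by 0.14 ± 0.032 (adjusted p = 1.99e-04). The channel TOMM40 had 162, 157 and 155 CPM in the C1s-CM libraries and 138, 142 and 137 CPM in the control libraries and rose by 0.19 ± 0.035 (adjusted p = 3.50e-05). TOMM7, a small subunit that modulates the complex and helps to hold PINK1 at the outer membrane, had 114, 133 and 124 CPM in the C1s-CM libraries and 117, 109.6 and 105 CPM in the control libraries. The groups of TOMM7 overlapped, replicate 1 of C1s-CM lying below replicate 1 of control CM, and its difference was 0.16 ± 0.049 (adjusted p = 0.00297). TOMM34 carries a TOMM symbol but is a cytosolic co-chaperone of HSP70 and HSP90. It had 110.3, 110.1 and 116 CPM in the C1s-CM libraries and 105, 104 and 103 CPM in the control libraries and rose by 0.11 ± 0.039 (adjusted p = 0.0108, and 0.077 without replicate 3 of C1s-CM). Within libraries the log2 ratio of TOMM22 to TOMM20 was 1.01 ± 0.040 in C1s-CM and 0.68 ± 0.050 in control CM (SD, n = 3 each), a difference of 0.33, and that of TOMM40 to TOMM70 was 0.75 ± 0.047 and 0.37 ± 0.042, a difference of 0.38. Each has a two-sided exact permutation p = 0.1 (n = 3 per group), again the smallest possible. Each pair sets a gene that rose over one that fell, so the shift was fixed by the choice of pair and adds no support. The transcripts also differ in base composition: 46.9% G and C in TOMM22, 41.4% in TOMM20, 64.8% in TOMM40 and 42.3% in TOMM70.

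**Figure D3:**
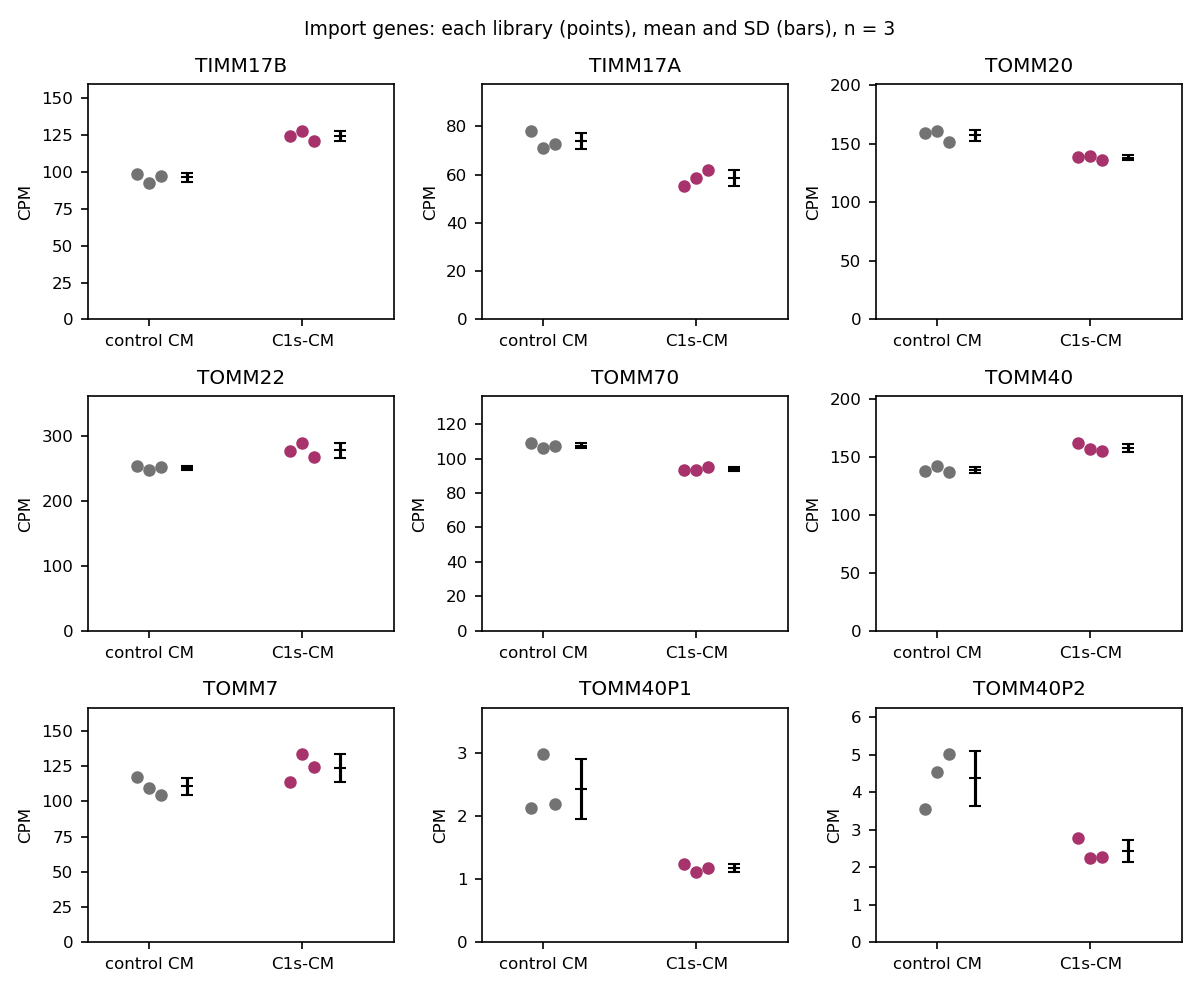
CPM of 9 import genes in each control CM and C1s-CM library (points), with the mean and SD of 3 libraries beside them (bars) and every axis starting at 0. TIMM17B and TIMM17A separate in opposite directions, TOMM20 and TOMM70 are lower in C1s-CM, and the 2 pseudogenes show the largest relative falls from levels under 6 CPM.

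The 2 processed pseudogenes of TOMM40 had the largest falls of the 53 genes, from low counts. TOMM40P1 (chr14:19267115-19268164, plus strand) had 17, 16 and 16 counts in the C1s-CM libraries and 28, 42 and 32 in the control libraries, and TOMM40P2 (chr22:15854195-15855243, minus strand) had 38, 32 and 31 counts in the C1s-CM libraries and 47, 64 and 73 in the control libraries. No C1s-CM library reached any control library in either. The fitted differences were -1.04 ± 0.26 (adjusted p = 7.24e-04) and -0.85 ± 0.20 (adjusted p = 3.29e-04), which placed them 13th and 69th from the lowest of 5116 genes, while TOMM40 itself (chr19:44890569-44903689, plus strand, 9 exons) rose. TOMM40 had 2216, 2238 and 2117 counts in the C1s-CM libraries and 1817, 2008 and 2005 in the control libraries. Over 1013 aligned columns TOMM40P1 is 96.1% identical to the TOMM40 transcript, with a longest identical run of 113 bases, and TOMM40P2 is as similar (96.1% over 1012 columns). The 2 pseudogenes are 99.3% identical to each other, with an identical run of 473 bases, so reads could be split between them or shared with TOMM40, and their counts are uncertain. A window of 90 bases is shown to make this plain. It is TOMM40 coding bases 151 to 240, and capitals mark the base at which the pseudogenes differ from TOMM40.

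TOMM40: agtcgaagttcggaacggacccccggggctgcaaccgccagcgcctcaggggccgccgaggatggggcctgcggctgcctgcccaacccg

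TOMM40P1: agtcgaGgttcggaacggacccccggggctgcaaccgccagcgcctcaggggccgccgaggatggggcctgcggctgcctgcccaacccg

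TOMM40P2: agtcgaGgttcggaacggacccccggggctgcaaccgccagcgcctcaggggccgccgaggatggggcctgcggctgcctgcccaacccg

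Each pseudogene differs from TOMM40 at 1 base of this window, the same base in both, so a read inside the window can tell TOMM40 from a pseudogene by that base alone and cannot tell the pseudogenes apart. How the authors' counting treated reads that match several places is not given in the sources used here. More widely, 17 of the 53 genes have at least 1 pseudogene named after them, among them TOMM22 with 6 and TOMM20 with 4, and 34 overlap another annotated gene, 29 of them one on the opposite strand.

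The direction of change followed base composition, in these genes as in the table as a whole. Of the 37 genes whose transcript has at least 50% G and C, 35 rose, the other 2 being the TOMM40 pseudogenes. Of the 16 with under 50%, 6 rose (MRPL17, MRPL57, MRPS21, TIMM8B, TOMM7 and TOMM22) and 10 fell. The 6 that rose have short transcripts with 44 to 50% G and C. Among all 165 table genes of that range with at most 2500 bases 77 (46.7%) had a difference above 0, beside 6 of 7 here. The lower limit of that range lies just under the lowest of the 6 genes, TOMM7 (44.5%), so its choice partly fixed the contrast. Without the lower limit, 6 of 10 genes under 50% with at most 2500 bases rose, beside 20.8% of 471 table genes. Spearman's rho across genes between difference and transcript GC content was 0.57 for the 53 genes and 0.70 for the 51 without the pseudogenes, beside 0.85 over 5112 genes. The genes share the same 6 libraries and are not independent replicates.

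The GC content of the coding sequence separated the directions of the 51 coding genes, in a look added after the data had been seen. The 10 coding genes that fell had 39.9 to 49.5% G and C in their coding sequence (median 45.7%), and the 41 that rose had 50.3 to 68.1% (median 58.0%). At the third codon position the ranges were 30.3 to 48.3% and 54.1 to 90.5%. Among all genes with a coding GC content under 50% the share with a difference above 0 was 4.44%, and at or above it 89.6%. For GC content at the third codon position the shares over all genes were 2.55% under 50% and 85.9% at or above it. The 6 members with a transcript under 50% and a coding sequence at or above 50% all rose, where 23.4% of all 333 such genes had a difference above 0. The 10 with both under 50% all fell, where 3.21% of all 2212 such genes had a difference above 0.

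**Figure D4:**
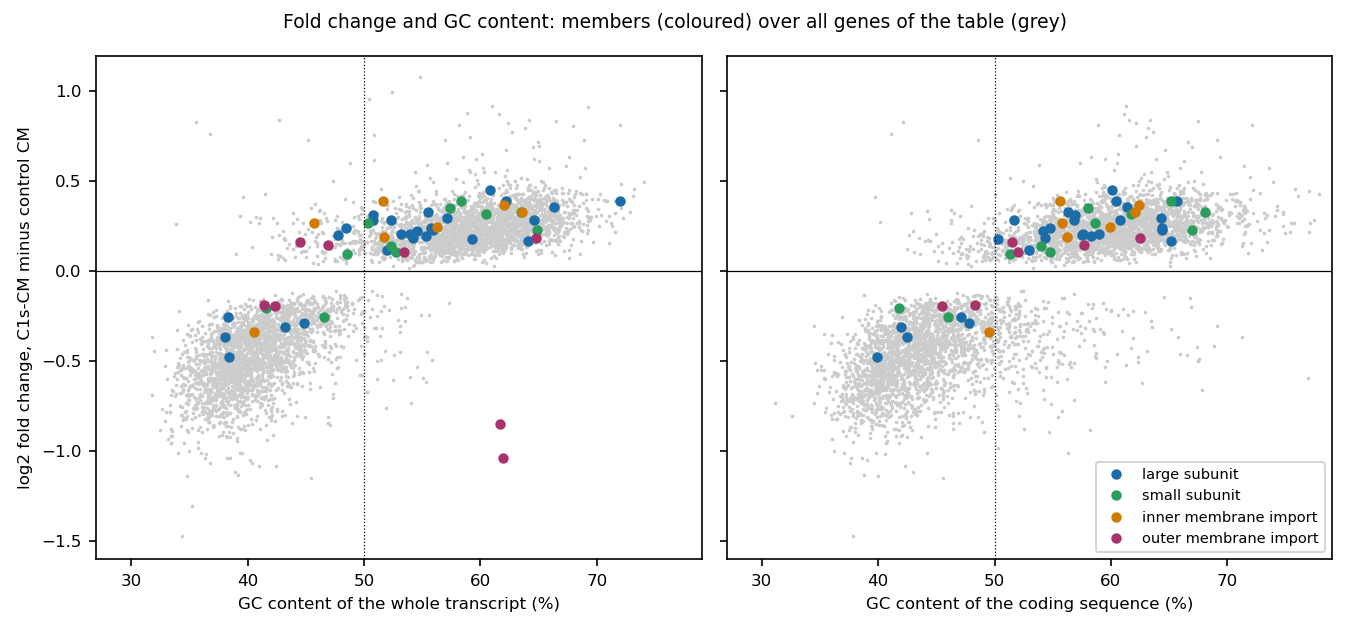
Log2 fold change (C1s-CM minus control CM) against the GC content of the whole transcript (left) and of the coding sequence (right), with the 53 genes in colour by class, all other genes of the table in grey and the line at 50% dotted. Grey points beyond the axis limits are not drawn. At right every coloured gene left of 50% lies below 0 and every one right of it above 0, and at left the 2 pseudogenes stand apart below 0.

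When offsets that removed the trend with transcript GC content and length in each library were put into the edgeR fit, 18 of the 53 genes were called higher, 6 lower and 29 not at all, where 25.6% of 5112 genes were called (14.4% higher and 11.2% lower). The median of the 53 genes went from 0.20 to 0.045. By class the offsets left 9 MRPL genes higher and 1 lower (median 0.040), 2 MRPS genes higher and 2 lower (0.043), 3 TIMM genes higher and 0 lower (0.068), and 4 TOMM genes higher and 3 lower (0.094). The largest differences above 0 with these offsets were those of TIMM8B (0.34), MRPL57 (0.28) and TIMM10 (0.27). MRPL11 kept a difference of 0.23 and MRPL14 of 0.092. These 2 are given because, like TIMM10, they were called higher in all 3 offset fits described below. TIMM17B and TIMM17A came to 0.038 and -0.022 with these offsets, neither called. TOMM20 and TOMM70, both lower without offsets, were called higher with them (0.22 and 0.20), as was MRPL19 (0.25), and TOMM40 and MRPL4, both higher without offsets, were called lower (-0.12 and -0.14). TOMM40P1 and TOMM40P2 came to -1.36 and -1.17, the 2 lowest values of 5112 genes.

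These calls depended on which sequence the offsets used. With the longest transcript in place of the representative one, 16 genes were called higher and 6 lower, and with the coding sequence 14 and 4. Only TIMM10, MRPL11, MRPL14 and TOMM70 were called higher in all 3 of these fits, TOMM70 against its direction without offsets, and 0 genes were called lower in all 3, although the pseudogenes, which have no coding sequence, were called lower in both fits that could include them. Among all genes 6.81% were called higher and 4.5% lower in all 3. TIMM13 was called in none of the 3 (0.045, 0.030 and -0.00081), and TIMM8B was not called with the coding sequence (0.013). TIMM17B was called higher with the longest transcript (0.11, adjusted p = 0.0324) and not with the coding sequence (0.056), and TIMM17A was called lower with the coding sequence (-0.26, adjusted p = 2.04e-04) and not with the longest transcript (-0.033). TOMM20 was called higher with both transcript offsets and lower (-0.15) with the coding offsets, and TOMM22 likewise (0.23 with the representative transcript and -0.12 with the coding sequence). The offsets were fitted on genes already called, and a biological difference that followed GC content would be removed by them too, so the part of base composition in the differences cannot be told apart from the treatment here.

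**Figure D5:**
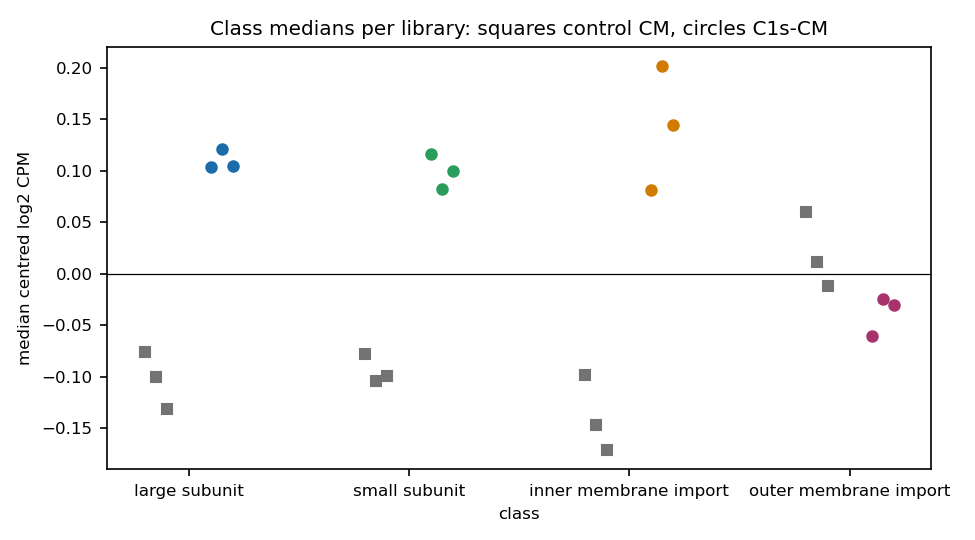
Median over each class of log2 CPM minus the gene's mean, per library, with squares for control CM and circles for C1s-CM. The groups separate by direction in the large subunit, the small subunit and inner membrane import, and for outer membrane import the C1s-CM medians lie below the control medians, a class that holds the 2 pseudogenes.

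RefSeq promoters (GRCh38.p14, 250 bases before to 50 after a start) were matched for 46 of the 53 genes, with 53 starts. Nuclear genes for mitochondrial proteins are known targets of NRF1, of the ETS factor GABP and of YY1. The ETS letters CCGGAAG stood on either strand in 23 of the 53 promoters (43.4%), beside 18.1% of the 6166 promoters of table genes and 10.3% of all 34961 promoters. The NRF1 letters, GCGCA, then any base, then GCGC, stood in 15.1%, beside 11.6% and 5.8%, and the YY1 letters AANATGGCG in 13.2%, beside 7.59% and 3.2%. The ETS letters were in 17 of 42 promoters of genes that rose (40.5%) and in 6 of 11 of genes that fell (54.5%). Over all table genes these shares were 18.2% and 17.8%. The 42 promoters belong to 36 genes and the 11 to 10 genes. Nearly identical windows of the same gene, as for MRPS12 and MRPL47, were counted separately, so these shares are not shares of genes. Among the 6 TOMM promoters 4 held the ETS letters and 4 the NRF1 letters. In the other classes the NRF1 letters stood in 4 of 28 MRPL, 0 of 13 MRPS and 0 of 6 TIMM promoters. There the ETS letters stood in 10, 7 and 2 promoters. The promoters of TOMM20 and TOMM70, which fell, and of TOMM22, which rose, are shown because all 3 hold the ETS letters. They are written 5′ to 3′ on the gene's strand, with ETS and NRF1 letters in capitals. CTTCCGG is CCGGAAG read on the other strand, and the stretch of 10 capitals in TOMM20 is the NRF1 match.

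TOMM20 promoter, chr1:235128788-235129087, minus strand: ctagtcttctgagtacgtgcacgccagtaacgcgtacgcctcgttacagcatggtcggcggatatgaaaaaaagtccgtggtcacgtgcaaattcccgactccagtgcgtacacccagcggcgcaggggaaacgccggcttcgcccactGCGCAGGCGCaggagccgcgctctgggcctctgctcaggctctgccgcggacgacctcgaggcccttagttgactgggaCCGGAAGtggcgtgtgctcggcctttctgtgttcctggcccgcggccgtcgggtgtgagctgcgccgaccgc

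TOMM70 promoter, chr3:100401040-100401339, minus strand: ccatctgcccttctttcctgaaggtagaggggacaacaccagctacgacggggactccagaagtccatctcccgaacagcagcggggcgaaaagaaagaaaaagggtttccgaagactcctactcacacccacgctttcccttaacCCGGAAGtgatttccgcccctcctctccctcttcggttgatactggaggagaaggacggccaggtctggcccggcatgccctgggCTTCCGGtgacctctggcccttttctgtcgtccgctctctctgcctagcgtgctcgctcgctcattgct

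TOMM22 promoter, chr22:38681707-38682006, plus strand: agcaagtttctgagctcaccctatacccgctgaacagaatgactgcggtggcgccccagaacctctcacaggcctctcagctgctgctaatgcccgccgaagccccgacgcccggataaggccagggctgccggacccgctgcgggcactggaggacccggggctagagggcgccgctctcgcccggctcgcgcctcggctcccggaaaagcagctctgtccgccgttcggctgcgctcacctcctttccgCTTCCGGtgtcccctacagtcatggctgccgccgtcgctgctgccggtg

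TOMM20 holds 1 ETS and 1 NRF1 match, TOMM70 holds 2 ETS matches and TOMM22 holds 1. A match is a description of letters and not a site of binding. GABPA, which encodes the DNA-binding subunit of GABP, had a row with a log2 fold change of -0.73 ± 0.10 (adjusted p = 9.19e-07), and it was not called after the offsets. PPRC1, a coactivator of NRF1, rose by 0.16. Of 10 listed regulators of mitochondrial biogenesis 5 had a row, 2 of which rose and 3 fell, beside 50.9% and 48.5% of all tested genes. The 2 with at least 50% G and C in their transcript rose, the 3 under 50% fell, and 0 were called with the offsets.

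The listed factors of mitochondrial translation mostly fell. Of 17 listed translation factors 8 had a row, and 2 rose and 6 fell, with a median of -0.36. For all lists here, 50.9% of all tested genes rose and 48.5% fell. With the offsets 14.4% of all genes were called higher and 11.2% lower. TUFM, the elongation factor that delivers aminoacyl-tRNA, had 739.6, 741 and 711 CPM in the C1s-CM libraries and 615, 612 and 614 CPM in the control libraries and rose by 0.25 ± 0.027 (adjusted p = 1.16e-08). LRPPRC, which stabilises mitochondrial mRNA, had 76.1, 79.7 and 73.2 CPM in the C1s-CM libraries and 105 CPM in each control library, and fell by 0.46 (SE 0.044, adjusted p = 2.02e-09). All but 1 of these 8 factors have transcripts under 50% G and C, and after the offsets their median was 0.0051, with 1 called higher and 0 lower. Of 25 assembly and rRNA modification factors 9 had a row, and 7 rose and 2 fell. The 7 with at least 50% G and C in their transcript rose and the 2 under 50% fell. With the offsets 1 of the 9 was called higher and 0 lower. DHX30, a helicase of ribosome assembly, rose by 0.25, and GTPBP10, a GTPase of large subunit assembly, fell by 0.55. Of 6 mitoribosomal proteins with other symbols 3 had a row, AURKAIP1 rising by 0.34 and PTCD3 falling by 0.23. Of 20 mitochondrial aminoacyl-tRNA synthetases 2 had one, AARS2 rising by 0.15 and RARS2 falling by 0.43. In both lists the genes with at least 50% G and C rose and the others fell.

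Import components with other symbols were split. Of 24 listed 10 had a row, and 5 rose and 5 fell, with a median of -0.057, beside 50.9% and 48.5% of all tested genes. All 4 with at least 50% G and C in their transcript rose, and 1 of the 6 under 50%. With the offsets 2 of the 10 were called higher and 1 lower. ROMO1, a small inner membrane protein, had 782, 895 and 867 CPM in the C1s-CM libraries and 677, 629 and 637 CPM in the control libraries, a rise of 0.39 ± 0.037 (adjusted p = 2.37e-09). MTX3, a metaxin of the outer membrane, had 10.8, 10.4 and 9.62 CPM against 16.4, 19.0 and 18.9 CPM and fell by 0.82 (SE 0.10, adjusted p = 1.39e-07). Among 11 mitochondrial proteases and prohibitins 6 had a row, and 5 rose and 1 fell. The 5 with at least 50% G and C rose and the 1 under 50% fell. With the offsets 1 of the 6 was called higher and 0 lower. LONP1, the matrix protease, rose by 0.25, and YME1L1, the inner membrane protease known to degrade TIMM17A protein, fell by 0.33. Of 18 genes of mitochondrial DNA maintenance and transcription 5 had a row, with 2 rises and 3 falls. HSD17B10 rose by 0.33, and TFAM, the packaging and transcription factor of mitochondrial DNA, fell by 0.43. The 2 with at least 50% G and C rose, the 3 under 50% fell, and 0 were called with the offsets.

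The RNA that the mitochondrial ribosome reads and is built on differed in 1 direction with TMM scaling. All 15 genes of the mitochondrial chromosome on the list had a row and all 15 rose, by 0.086 to 0.41 with a median of 0.24. All have under 50% G and C, with a median transcript length of 954 bases. Of all table genes under 50% with at most 2500 bases, 20.8% had a difference above 0. Over all tested genes 50.9% rose. The groups overlapped for 3 of the 15, where 97.2% of all tested genes did not overlap. With the representative-transcript offsets all 15 were called higher (median 0.31), beside 14.4% of all genes. With total-count scaling 10 rose and 0 fell, beside 26.1% and 49.2% of all tested genes. The ribosomal RNA MT-RNR2 then had a difference of -0.040, and neither ribosomal RNA was called. MT-CO3, a subunit of complex IV, had 1976, 2017 and 2058 CPM in the C1s-CM libraries and 1637, 1589 and 1606 CPM in the control libraries and rose by 0.32 ± 0.027 (adjusted p = 2.10e-10). The ribosomal RNAs MT-RNR1 and MT-RNR2, which poly(A) selection captures only in part, rose by 0.22 and 0.086. The nuclear RNA MALAT1 fell by 0.53. Mitochondrial and nuclear RNA shares can follow RNA quality and cell state, and their part in the differences above was not tested.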

How the data were processed

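Poly(A) RNA of 6 HMC3 libraries was sequenced from both ends, per the labels' protocols. Per the submitters' processing notes, the authors used FastQC 0.11.9, Trim Galore 0.6.7, HISAT2 2.2.1, DESeq2 1.40.2 and GRCh38. The program that counted reads, the annotation and the strand setting were not given in the sources used here. The authors deposited 1 table of raw counts per gene. Per the file headers it also holds their log2 fold changes and their p-values, plain and adjusted. All 53 genes have the same sign in the authors' deposited table, as do all 5116 tested genes. The log2 fold changes of that table lie a median of 0.036 above those of the fit below.

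Counts were tested with edgeR 4.0.16 (R 4.3.3) by the quasi-likelihood test with TMM scaling, group as the only term, two-sided, Benjamini-Hochberg adjusted over 5116 genes at a threshold of 0.05, after 1 row was removed by filterByExpr. Each SE was taken as the fitted change over the root of F. Loess offsets (span 0.3) used GC content and log2 length from GENCODE 29, for 5112 genes. Alternatives were DESeq2 1.42.0, RLE and total-count scaling, count filters, the replicate block, each library left out, and other offsets. The steps were also run on simulated counts, and no result given here rests on that run. Base composition, motifs and identity were read from GENCODE and RefSeq sequences.

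The genes, lists and tests were chosen with earlier results of these data known. Named are the 4 largest rises and falls per class, most but not all members called with the offsets, and all TOMM genes and small TIM chaperones. Of each other list, the 1 gene with the smallest p in each direction is named. Other genes named (such as TIMM50, MRPL10, MRPL12, MRPL2, MRPL20, MRPS21 and SDHD) were chosen after their values were seen. Values of 2 genes that these rules or lists take in are not reported here.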

Additional observations from a re-analysis of the deposited data

How the results depend on the processing

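Limits apply throughout. The table holds called genes alone, so the tests give sizes and errors and no independent support, and its totals are not library depths. Of the 53 genes the lowest, TOMM40P1, rests on 16 to 42 counts per library. Of the members tested in each, 0 changed sign under RLE scaling, DESeq2, either count filter or the replicate block, while 3 lost their call with DESeq2 and 1 with RLE scaling. A filter of at least 50 counts left out both pseudogenes, which brought the outer membrane median to 0.12, and leaving them out alone, an alternative added after the data had been seen, brought it to 0.13. Classing genes by their place in the structure brought the small subunit median to 0.18.

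The deviations of same-numbered libraries had correlations of -0.13, -0.087 and -0.0031, and those of differently numbered libraries ran from -0.061 to 0.14. These values show no shared replicate effect but cannot settle whether the samples were paired. The replicate block left the calls of all 53 genes as they were. Leaving out 1 library at a time gave 4996 to 5051 called genes over the table, 26 to 27 and a median of 0.21 to 0.23 for the large subunit, 10 to 11 and 0.21 to 0.25 for the small subunit, 7 and 0.24 to 0.32 for inner membrane import, and 7 to 8 and -0.045 to -0.027 for outer membrane import, with 118 to 121 genes of the other lists.

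With total counts as the only scaling, 4 outer membrane genes were called, beside 75.3% of all tested genes. The medians were 0.10, 0.10, 0.14 and -0.16 for large subunit, small subunit, inner and outer membrane. Differences changed sign to -0.0065 for MRPL20 and to -0.017 for MRPS18B and -0.032 for MRPS21 and to -0.016 for TOMM34.

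GC and length offsets changed most. Called genes over the table were 1309 with the representative transcript, 1158 with the block as well, 1362 with the longest transcript and 1669 with the coding sequence (added after the data had been seen). In that order 10, 9, 11 and 9 large subunit genes were called, 4, 3, 2 and 3 small subunit genes, 3, 3, 3 and 2 inner membrane genes and 59, 54, 61 and 58 genes of the other lists, and with the coding sequence 4 outer membrane genes. Medians were 0.040, 0.040, 0.032 and 0.0049 for the large subunit, 0.043, 0.043, 0.018 and 0.056 for the small subunit, and 0.068, 0.068, 0.066 and 0.013 for inner membrane import. The outer membrane median turned to 0.094, 0.094 and 0.040 in the first 3 and was -0.051 with the coding sequence. The cause of each change beyond the offsets themselves was not tested.

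Single genes that changed sign follow, with or without a call. With the representative transcript, and in brackets with the replicate block as well, the log2 fold changes were -0.030 (-0.028) for MRPL23, 0.10 (0.10) for MRPL42, 0.020 (0.019) for MRPL47, -0.14 (-0.14) for MRPL4, 0.25 (0.25) for MRPL19, -0.063 (-0.063) for MRPL12, -0.017 (-0.017) for MRPL43, -0.0024 (-0.0025) for MRPL2 and -0.089 (-0.089) for MRPL40. For small subunit genes they were 0.10 (0.10) for MRPS10, -0.12 (-0.12) for MRPS34, -0.0077 (-0.0076) for MRPS7 and -0.038 (-0.038) for MRPS18B. For import genes they were -0.12 (-0.12) for TOMM40, -0.017 (-0.017) for TOMM34, 0.20 (0.20) for TOMM70 and 0.22 (0.22) for TOMM20. For genes of the other lists they were -0.028 (-0.028) for AURKAIP1, 0.18 (0.18) for PTCD3, 0.088 (0.093) for GTPBP10, -0.064 (-0.064) for AARS2, -0.012 (-0.013) for ROMO1, 0.12 (0.12) for TFAM, -0.0055 (-0.0055) for LONP1, 0.094 (0.094) for YME1L1 and -0.027 (-0.026) for PPRC1. With the longest transcript they were 0.10 for MRPL42, -0.15 for MRPL4, 0.23 for MRPL19, -0.043 for MRPL12, -0.0057 for MRPL43, -0.043 for MRPL2, -0.11 for MRPL40 and -0.11 for MRPL20. Small subunit genes had 0.071 for MRPS27, 0.018 for MRPS10, -0.10 for MRPS34, -0.019 for MRPS7, -0.069 for MRPS18B and -0.0070 for MRPS21. Import genes had -0.038 for TOMM40, -0.089 for TOMM34, 0.18 for TOMM70 and 0.20 for TOMM20. Other listed genes had -0.0094 for AURKAIP1, 0.15 for PTCD3, 0.071 for GTPBP10, -0.071 for AARS2, -0.0027 for ROMO1, 0.10 for TFAM, -0.013 for LONP1, 0.11 for YME1L1 and -0.042 for PPRC1. With the coding sequence they were 0.029 for MRPL47, 0.00099 for MRPL30, -0.10 for MRPL57, -0.042 for MRPL49, -0.034 for MRPL17, -0.11 for MRPL4, 0.0049 for MRPL19, -0.036 for MRPL55, -0.0012 for MRPL12, -0.10 for MRPL43, -0.016 for MRPL10, -0.0035 for MRPL2 and -0.011 for MRPL20. Small subunit genes came to 0.10 for MRPS27, 0.21 for MRPS10, -0.089 for MRPS34 and -0.049 for MRPS21. Import genes came to -0.00081 for TIMM13, -0.059 for TOMM40, -0.042 for TOMM7, -0.12 for TOMM22 and 0.22 for TOMM70. Other listed genes came to 0.24 for PTCD3, 0.082 for LRPPRC, -0.077 for AARS2, 0.078 for RARS2, 0.020 for TFAM, 0.21 for YME1L1 and 0.0048 for RPL7.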

Other observations

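The cytosolic ribosome, whose proteins are encoded in the nucleus like those of the mitochondrial ribosome, moved mostly in the same direction. Of its protein genes 59 had a row, of which 52 rose, 6 fell and 1 was not called in the edgeR test, with a median log2 fold change of 0.20. Over all tested genes 50.9% rose and 48.5% fell. RPL7, of the large subunit, had 1439, 1375 and 1394 CPM in the C1s-CM libraries and 1755, 1907 and 1769 CPM in the control libraries and fell by 0.37 (SE 0.031, adjusted p = 2.59e-10). All 32 of these genes with a transcript of at least 50% G and C had a difference above 0, and so did 21 of the 27 under 50%. Over all tested genes the shares were 98% and 6.15%, and 20.8% for those under 50% with at most 2500 bases. With the GC and length offsets 31 were called higher, 5 lower and 23 not at all, with a median of 0.082. Over all genes 14.4% were called higher and 11.2% lower with these offsets. With total-count scaling 31 rose and 8 fell, beside 26.1% and 49.2% of all tested genes.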
